A study of Mus musculus with 12 samples.

Results

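Chemokines are small secreted proteins that bind receptors of the G protein coupled family and steer cells that carry those receptors along a gradient. Their names give the spacing of the first cysteines (CC, CXC, CX3C or XC), and most act through receptors that couple to inhibitory G proteins, while a few atypical receptors take up the ligand without that coupling. In the mammary gland they are known chiefly for bringing macrophages and eosinophils to the growing ducts and for contacts between epithelium and stroma. The count table was searched for gene symbols made of Ccl, Cxcl, Cx3cl, Xcl, Ccr, Cxcr, Cx3cr or Xcr followed by a number. This found 53 of its 20114 single-locus entries, with 51 different symbols, of which 34 entries are ligands and 19 are receptors. Of the 53, 25 had enough counts to be tested and 28 did not.

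RNA was sequenced from mammary epithelial cells, sorted by fluorescence from adult females of 9 weeks whose mixed background held Swiss Webster, C57BL/6 and 129X1/SvJ, in 3 groups of 4 libraries. Recombined cells came from animals of the genotype mT-mG/SmoM2;MMTV-Cre and were SmoM2 positive and green. SmoM2 is an activated form of Smoothened, which relays the Hedgehog signal from the cell membrane. Unrecombined cells had the same genotype and were red and SmoM2 negative, and wild type cells were of genotype mT-mG/SmoM2;+ and had no Cre. All 3 groups thus carried the mT-mG reporter and the SmoM2 allele. The MMTV promoter drives the Cre, so the green cells are those of the gland in which that promoter was or had been active. Green cells without SmoM2 were not among the groups, so SmoM2, Cre and the sorted colour cannot be told apart. The labels do not say which animals gave each library, and the p values then measure the spread of libraries, which may be technical.

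Library totals lay between 19581993 and 34779433 counts. Ptch1, a Hedgehog target, lay between 133 and 809 CPM (counts relative to library size) in recombined libraries and between 34.5 and 38.1 in wild type libraries. Epcam, a surface protein of epithelium, lay between 715 and 1847 CPM over all libraries. Recombined libraries 3 and 4 stood apart on the first principal component (31.4% of the variance), with counts in 14256 and 14601 loci. Markers of salivary gland summed to between 1313 and 92360 CPM in recombined 1 and 2, unrecombined 1 and 2 and wild type 2, and to between 42.05 and 80.3 CPM in the other 7 libraries. Ptprc, the pan-leukocyte antigen CD45, had 0.70 to 1.70 CPM in recombined, 1.39 to 4.52 in unrecombined and 4.26 to 12.65 in wild type libraries.

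Recombined cells held more RNA of the CXC chemokine Cxcl14 and of the Cxcl12 receptor Cxcr7 than either other group. They also held more Cxcl12 than wild type cells, a call kept in only 9 of 27 alternative settings. In the unpaired fit used for the calls, they held less RNA of the CC chemokines Ccl11 and Ccl2 than unrecombined cells. Where same-numbered recombined and unrecombined libraries were treated as pairs, Ccl2 did not pass, while Cxcl12 and Cx3cl1 passed as higher and Cxcl15 as lower. Against wild type, 3 of the 25 tested members rose and 0 fell (12% called), beside 6.55% of the 14039 loci tested, of which 4.17% rose and 2.38% fell. Against unrecombined cells, 2 rose and 2 fell (16% called), beside 5.22% of all loci, 3.08% higher and 2.14% lower. Calls come from the quasi-likelihood test of edgeR with Benjamini-Hochberg adjustment over all loci, at an adjusted p under 0.05. The median log2 fold change of the tested members was 0.02 against wild type, where all loci had -0.02. It was -0.32 against unrecombined cells, where all loci had -0.01. An unadjusted p under 0.05 was found for 9 of the 25 against wild type, beside 20.6% of loci, and for 8 of the 25 against unrecombined cells, beside 18% of loci. Both comparisons use the same 4 recombined libraries, so they are not independent of each other.

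Between unrecombined and wild type cells 0 of the 25 members passed, beside 0% of all loci. In that comparison Ccl11 and Ccl2 had an unadjusted p under 0.05, as did 3.85% of loci, and Ccl11 passed with DESeq2. Libraries of the groups did not overlap for 4 members in recombined against wild type (16%, beside 12.2% of loci), for 4 in recombined against unrecombined (16%, beside 11.3%) and for 2 in unrecombined against wild type (8%, beside 4.42%). These shares rest on few members and lie near those of all loci.

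**Figure D1:**
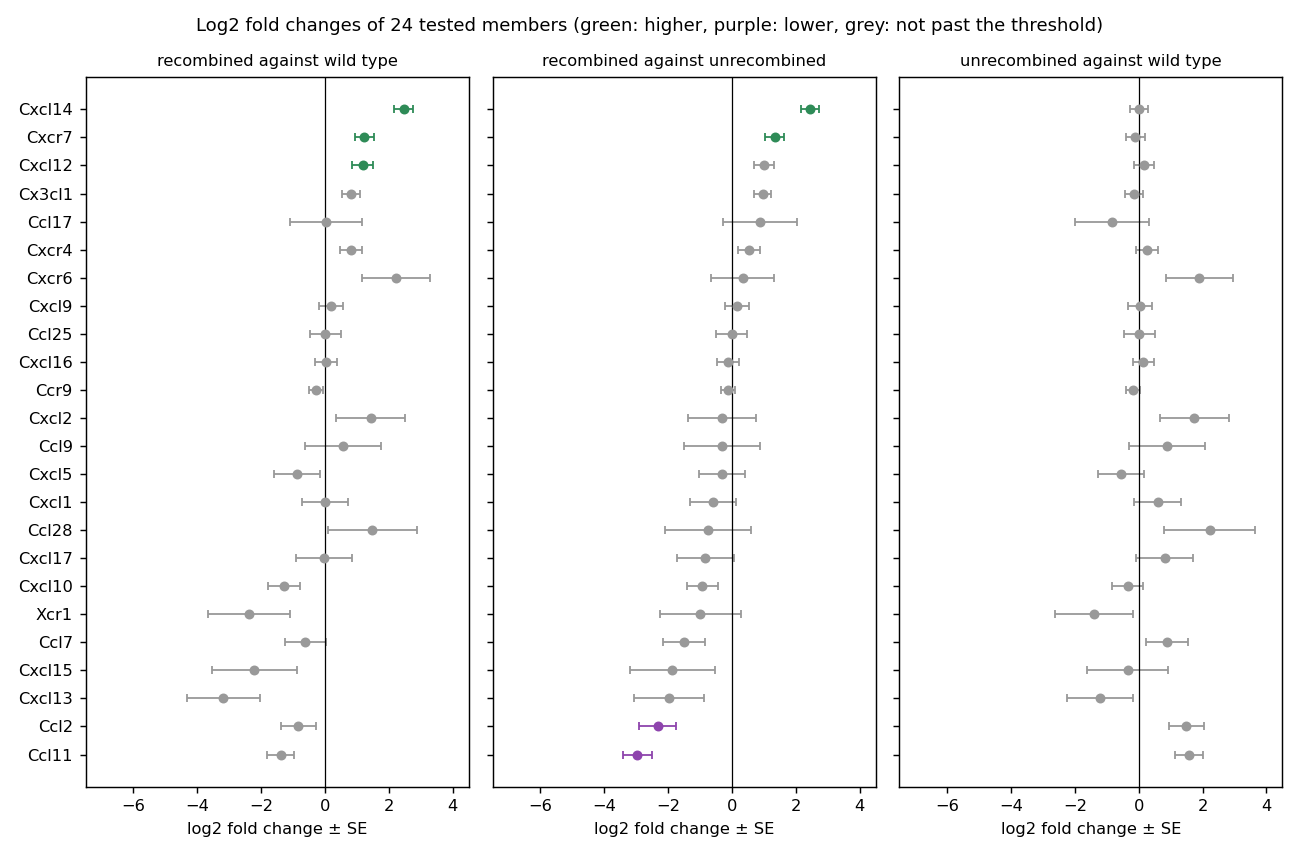
Log2 fold change with its standard error (horizontal axes) of 24 tested entries (rows) in the 3 comparisons. Green points rose, purple points fell and grey points did not pass an adjusted p of 0.05. Cxcl14 and Cxcr7 are green in both comparisons of recombined cells, and the panel of unrecombined against wild type cells holds grey points only.

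Cxcl14 is an ancient CXC chemokine made by epithelia of skin and other organs, and no single receptor is firmly assigned to it. Its entry, on mm9 chromosome 13 from position 56390005, is listed with Bmac, an older name of the same gene. Recombined libraries 1 to 4 had 121, 157, 130 and 107 CPM, unrecombined libraries 19.95, 38.85, 19.05 and 16.1 CPM, and wild type libraries 24.97, 19.4, 32.1 and 17.2 CPM. Every recombined library lay above every other library, the nearest pair being recombined 4 and unrecombined 2, and the red groups overlapped each other. Against wild type Cxcl14 rose 5.51-fold, a log2 value of 2.46 ± 0.287 (SE, edgeR adjusted p = 0.000271). Against unrecombined cells it rose by 2.46 ± 0.287 (adjusted p = 0.000174), and unrecombined differed from wild type cells by 0.01 ± 0.274. The call against unrecombined cells was kept in all 27 alternative settings and that against wild type in 26 of 27. It was lost among libraries whose numbers in the labels begin with 24, where 1 wild type library was left (2.80, adjusted p = 0.0897). Among libraries whose numbers begin with 23 the value was 2.46 (adjusted p = 0.0246).

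Cxcl12 is a chemokine made mainly by stromal cells that holds and guides cells with its receptors Cxcr4 and Cxcr7. Its entry starts on chromosome 6 at position 117118552. Wild type libraries had 18.9, 31.9, 38.4 and 31.0 CPM, unrecombined libraries 24.3, 50.6, 32.85 and 27.3 CPM, and recombined libraries 43.9, 61.4, 114 and 52.8 CPM. The 4 recombined values exceeded each wild type value, recombined 3 was the highest of all 12, and unrecombined 2 lay above recombined 1. Against wild type cells Cxcl12 rose by 1.18 ± 0.323 (adjusted p = 0.0436). Against unrecombined cells the difference was 1.01 ± 0.322 (adjusted p = 0.0940). It passed with the replicate number as a block (0.97, adjusted p = 0.0473). The labels do not state pairs, which were taken from shared deviations of same-numbered libraries. The call against wild type was kept in only 9 of 27 settings. It was lost without recombined 2, 3 or 4 (adjusted p 0.0617, 0.1275 and 0.0510), without wild type 1, 2, 3 or 4 (0.110, 0.0922, 0.05935 and 0.103) and without unrecombined 3 or 4 (0.0572 and 0.0540). The call was also lost with upper quartile scaling and with voom, with or without library weights. It did not pass with the library number series as a covariate or with only the 2 groups compared. Cxcl12 differed by 0.83 among libraries of the 23 series and by 1.43 among those of the 24 series, and by 0.81 without recombined 3 and 4 (adjusted p = 0.282).

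Cxcr7, named Ackr3 in later annotations, is an atypical receptor that binds Cxcl12 and Cxcl11, takes them into the cell and so lowers their level outside. Its entry starts on chromosome 1 at position 92100577. In recombined libraries it had 22.7, 31.2, 30.4 and 39.0 CPM, in unrecombined libraries 10.3, 10.3, 12.9 and 14.9 CPM, and in wild type libraries 12.2, 6.89, 14.7 and 18.6 CPM. The 4 recombined libraries were the 4 highest of all 12, and the other groups overlapped. Cxcr7 rose by 1.24 ± 0.293 against wild type (adjusted p = 0.0220) and by 1.35 ± 0.294 against unrecombined cells (adjusted p = 0.0150). The call against wild type was kept in 21 of 27 settings and that against unrecombined cells in 22 of 27. Against wild type it was lost without recombined 4 (adjusted p = 0.0588) or wild type 1 (0.0588) and with only the 2 groups compared (1.24, adjusted p = 0.0540). Against unrecombined cells it was lost without unrecombined 1 (0.0611) and among the 7 libraries with low salivary sums (1.34, adjusted p = 0.0669). Without recombined 3 and 4 the values were 1.04 (adjusted p = 0.182) and 1.16 (adjusted p = 0.142), and within the 23 and 24 series Cxcr7 differed by 1.27 and 0.92 against wild type and by 1.40 and 1.32 against unrecombined cells, none of them past the threshold.

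Cxcr4 is the signalling receptor of Cxcl12, coupled to inhibitory G proteins, and starts on chromosome 1 at position 130484775. Recombined libraries had 61.4, 40.0, 32.8 and 33.6 CPM, unrecombined libraries 41.5, 20.5, 28.1 and 24.7 CPM, and wild type libraries 42.1, 16.8, 13.96 and 22.7 CPM. In each group library 1 was the highest, and wild type 1 and unrecombined 1 lay above 3 of the 4 recombined libraries. The difference from wild type was 0.81 ± 0.344 (adjusted p = 0.195) and that from unrecombined cells 0.55 ± 0.342 (adjusted p = 0.436). Without wild type 1 the first passed (1.24, adjusted p = 0.0374).

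**Figure D2:**
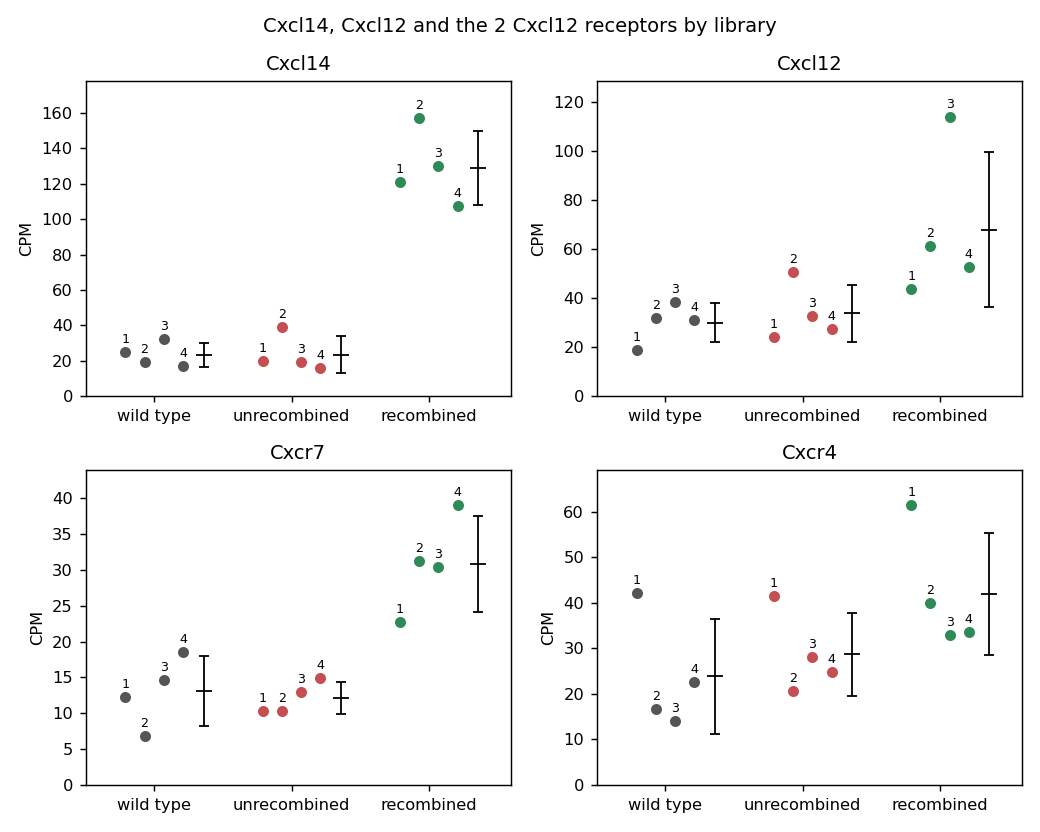
CPM (vertical axes, from 0) of Cxcl14, Cxcl12 and the receptors Cxcr7 and Cxcr4 in each of the 12 libraries, numbered as in the labels, with the mean and SD of each group beside the points. The recombined points of Cxcl14 and Cxcr7 lie above all others, while those of Cxcl12 overlap with unrecombined 2 and those of Cxcr4 with library 1 of both other groups.

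Basal and myoepithelial markers, 12 genes, summed to between 2083 and 8191 CPM in recombined, 906 to 1473 in unrecombined and 1042 to 1372 in wild type libraries, and 10 of the 12 rose in each comparison of recombined cells, while 1 fell against unrecombined cells. In the order of those sums recombined 1 is the lowest and recombined 4 the highest of its group. The lowest of the group was recombined 1 for Cxcr7 and Cxcl12 and recombined 4 for Cxcl14. The highest was recombined 4 for Cxcr7, recombined 3 for Cxcl12 and recombined 2 for Cxcl14. Markers of fibroblasts moved the other way, with 402.6 to 1006 CPM in recombined, 6932 to 9457 in unrecombined and 2110 to 4451 in wild type libraries. Markers of luminal hormone-sensing cells, 10 genes, summed to 865.8 to 2047 CPM in recombined, 2972 to 4735 in unrecombined and 3450 to 6427 in wild type libraries, and 8 of the 10 fell against wild type and 4 against unrecombined cells. Endothelial markers summed to 47.25 to 114.9 CPM in recombined, 116.1 to 206.8 in unrecombined and 98.58 to 154.8 in wild type libraries. Of the 9 tested, 0 passed against wild type with edgeR (2 with an unadjusted p under 0.05) and 1 fell against unrecombined cells. The part of these 4 marker lists in the levels of Cxcl14, Cxcl12 and Cxcr7 was not tested. In bulk RNA fewer cells of a kind and less RNA per cell cannot be told apart.

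The stretches before the start sites of the 3 genes that rose are shown to let a reader compare them. They are the 250 bases upstream in the RefSeq table of build GRCm38.p6, which is not the mm9 build of the counts, and 38 of the 51 member symbols had one. Capitals mark 2 motifs searched on both strands, the GC box GGGCGG, which 32.7% of 32851 promoters hold, and the TATA sequence TATAAA, which 12.4% hold. Coordinates are chr13:56296552-56296801 on the minus strand for Cxcl14, chr6:117168285-117168534 on the plus strand for Cxcl12 and chr1:90203730-90203979 on the plus strand for Ackr3.
Cxcl14: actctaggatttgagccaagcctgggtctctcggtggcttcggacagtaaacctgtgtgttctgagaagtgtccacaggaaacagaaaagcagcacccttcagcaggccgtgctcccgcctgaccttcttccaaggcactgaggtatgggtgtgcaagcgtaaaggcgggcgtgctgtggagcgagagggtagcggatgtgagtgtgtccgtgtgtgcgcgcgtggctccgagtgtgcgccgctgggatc
Cxcl12: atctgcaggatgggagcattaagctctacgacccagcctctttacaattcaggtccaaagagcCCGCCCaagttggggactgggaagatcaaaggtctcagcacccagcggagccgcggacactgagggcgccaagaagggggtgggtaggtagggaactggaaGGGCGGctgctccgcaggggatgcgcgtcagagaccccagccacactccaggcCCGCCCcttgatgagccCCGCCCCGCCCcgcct
Ackr3: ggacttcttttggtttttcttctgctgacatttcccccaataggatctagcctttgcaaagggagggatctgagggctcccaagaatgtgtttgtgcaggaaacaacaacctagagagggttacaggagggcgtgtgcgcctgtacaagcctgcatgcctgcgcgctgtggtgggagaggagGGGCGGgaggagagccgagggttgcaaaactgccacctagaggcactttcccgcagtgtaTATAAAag
Cxcl12 held 5 GC boxes, of which the last pair shares 1 base, and no TATAAA. Ackr3 held 1 of each and Cxcl14 neither. The letters TGGGTGGTC, bound by Gli factors, stood in 0 of the 38 member promoters and in 0.225% of all promoters, which says only that these letters are not in these windows.

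Neutrophil-attracting CXC chemokines share the residues Glu-Leu-Arg before the first cysteine pair, and Cxcl1, Cxcl2, Cxcl3 and Cxcl5 act through Cxcr2. Of their 5 entries (Cxcl1, Cxcl2, Cxcl3, Cxcl5 and Cxcl15), which lie together on chromosome 5 between positions 91188324 and 91332924, 4 were tested. None passed in any comparison, and 0 of 4 had an unadjusted p under 0.05 with edgeR. Cxcl1, on chromosome 5 from position 91320270, had 176, 606, 299 and 114.5 CPM in wild type, 322.5, 645, 743 and 91.7 in unrecombined and 411.5, 335, 385 and 57.5 in recombined libraries. Cxcl2, from position 91332924, had 18.6, 66.5, 36.9 and 17.0 CPM in wild type, 65.5, 102.5, 291 and 5.60 in unrecombined and 136, 83.5, 149 and 6.39 in recombined libraries. Both genes spread widely inside every group, and library 4 was the lowest of its group for both, in all 3 groups. The difference of recombined from wild type cells was -0.01 ± 0.727 for Cxcl1 (adjusted p = 0.997), with a 95% interval from -1.43 to 1.42, and 1.43 ± 1.08 for Cxcl2 (adjusted p = 0.512). Changes of that size or larger could go uncalled at this spread, so neither gene is shown to be unchanged. Cxcl1 and Cxcl2 are known as early response genes of epithelium under stress or inflammatory signals, and the part of cell isolation in their levels was not tested.

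The promoters of the neighbours Cxcl1, Cxcl2 and Cxcl3 are shown around the longest stretch that all 3 share, which was looked for after the sequences had been seen. It is GGGAATTTCCC, 11 letters that hold a binding motif of NF-kappaB, the factor through which inflammatory signals are known to induce these genes. On either strand it stood in 14 of 32851 promoters (0.0426%) and in no other of the 38 member promoters searched. These 3 hold it by the way it was chosen, so the share is no test of them. The match is in capitals between its flanking bases. The windows shown, flanks included, lie at chr5:90891164-90891194 for Cxcl1, chr5:90903792-90903822 for Cxcl2 and chr5:90786018-90786048 for Cxcl3 of GRCm38.p6, plus strand.
Cxcl1: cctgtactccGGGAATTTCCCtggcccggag
Cxcl2: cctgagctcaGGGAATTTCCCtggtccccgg
Cxcl3: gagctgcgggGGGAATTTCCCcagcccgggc
The match begins 71 bases before the start site in Cxcl1, 97 in Cxcl2 and 73 in Cxcl3. Cxcl3 was too low to test, with 0 to 19 counts in a library.

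Cxcl15, or lungkine, a chemokine described in lung and other mucosal epithelium, starts at position 91223559 of the same cluster. It had 26.3, 174, 48.7 and 35.1 CPM in wild type, 47.7, 145.7, 5.89 and 23.8 in unrecombined and 13.35, 42.8, 0.0538 and 4.74 in recombined libraries. Library 2 was the highest of each group, and recombined 3 held almost no counts. The library 2 of each group also had the highest sum of salivary markers of its group (19950, 92360 and 41650 CPM). Against wild type the difference was -2.22 ± 1.34 (adjusted p = 0.400), and it passed with the salivary sum as a covariate (-2.93, adjusted p = 0.0306) but not among the 7 libraries with low salivary sums (-3.87, adjusted p = 0.0988). Against unrecombined cells Cxcl15 differed by -1.87 ± 1.32 (adjusted p = 0.517), and with the paired numbers as a block by -2.41 (adjusted p = 0.0146). Cxcl5 lay between 0.238 and 2.98 CPM, with values against wild type and unrecombined cells of -0.88 ± 0.732 and -0.32 ± 0.729.

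**Figure D3:**
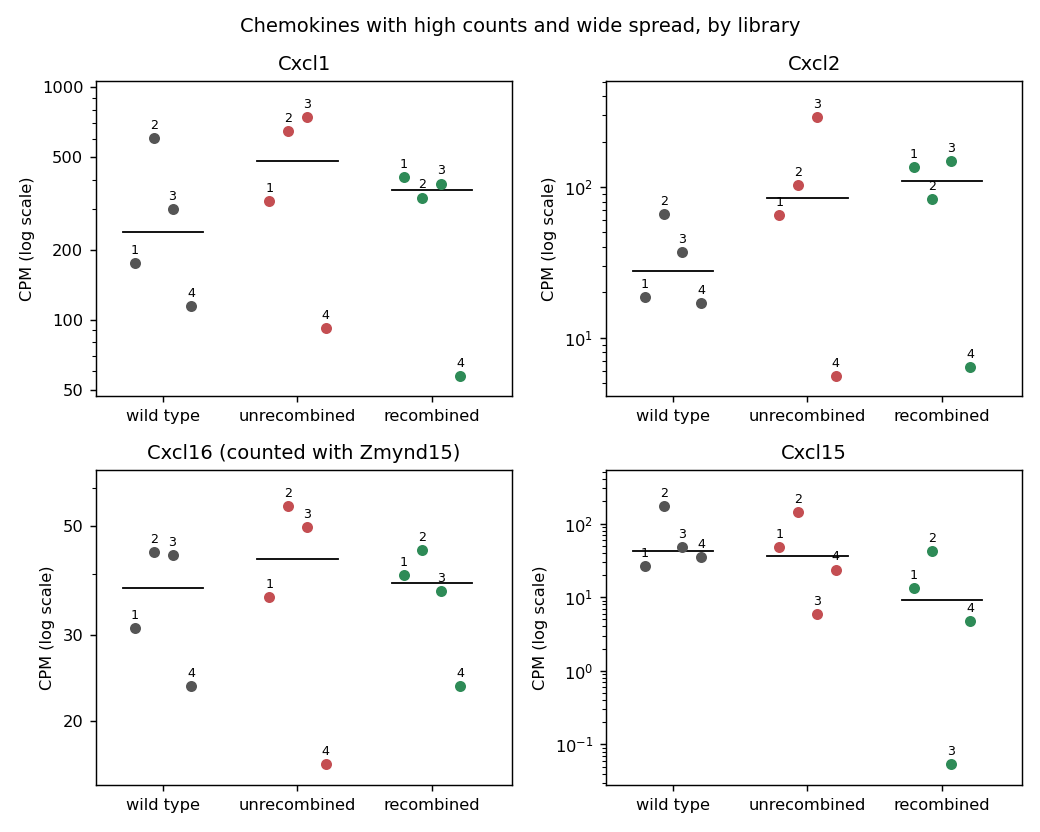
CPM on log axes of Cxcl1, Cxcl2, Cxcl16 (counted with Zmynd15) and Cxcl15 in each library, numbered as in the labels, with a line at the median of each group. Library 4 is the lowest of each group for Cxcl1, Cxcl2 and Cxcl16, and library 2 the highest for Cxcl15.

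Cxcl16, a membrane-bound chemokine that also acts as a scavenger receptor, is counted with Zmynd15 on chromosome 11 from position 70267735. It had 31.0, 44.2, 43.7 and 23.55 CPM in wild type, 35.9, 55.05, 49.9 and 16.3 in unrecombined and 39.7, 44.7, 36.9 and 23.6 in recombined libraries. The 3 groups overlapped, with the widest range in unrecombined libraries, and library 4 was again the lowest of each. The difference of recombined from wild type cells was 0.03 ± 0.336, with a 95% interval from -0.63 to 0.68. Its receptor Cxcr6 (chromosome 9, position 123715594) had 0.341, 0.155, 0.567 and 0.0717 CPM in wild type, 0.905, 1.81, 0.683 and 0.849 in unrecombined and 1.64, 0.220, 0.0538 and 3.42 in recombined libraries. All 4 unrecombined libraries lay above all wild type libraries, but the difference of 1.90 ± 1.05 did not pass (adjusted p = 1.00). Values for Cxcr6 rest on few counts.

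Cxcl9, Cxcl10 and Cxcl11 are induced by interferon and attract T cells through Cxcr3. They lie on chromosome 5 between positions 92750356 and 92788570. Cxcl10, followed because its unadjusted p was under 0.05 and so chosen after its values were seen, had 6.51, 13.4, 8.99 and 4.05 CPM in wild type libraries. Unrecombined libraries had 7.82, 7.54, 7.04 and 3.46 CPM of it and recombined libraries 5.50, 3.56, 1.02 and 3.46. Wild type 4 lay inside the recombined range and the other wild type libraries above it, and the difference was -1.28 ± 0.497 (adjusted p = 0.159). Cxcl9 lay between 3.74 and 12.4 CPM in all groups, with a difference from wild type of 0.19 ± 0.377. Cxcl11 had 0 to 15 counts in a library and Cxcr3 a single count in all.

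Cxcl13, which draws B cells into lymphoid follicles, starts on chromosome 5 at position 96385957. It had 0.920, 0.194, 2.53 and 0.789 CPM in wild type, 0.362, 0.302, 0.827 and 0.407 in unrecombined and 0.299, 0.147, 0 and 0 in recombined libraries. All recombined libraries lay below all unrecombined ones in CPM, at an adjusted p of 0.380. The nearest pair was recombined 1 with 10 counts and unrecombined 2 with 8, so that order rests on the scaling. Values for Cxcl13 rest on few counts. Against wild type the adjusted p was 0.124 with edgeR and 0.0383 with DESeq2. Cxcl17, a chemokine of mucosal surfaces, lay between 0.162 and 17.7 CPM, with the highest value in unrecombined 2, and did not pass in any comparison.

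Ccl2, Ccl7, Ccl11, Ccl12 and Ccl8 attract monocytes or eosinophils and lie side by side on chromosome 11 from position 81849078 to 81990167, together with Ccl1. Of the 5, 3 were tested. Against wild type 0 of 3 passed with edgeR (1 with an unadjusted p under 0.05, median log2 fold change -0.84). Against unrecombined cells 2 fell and 0 rose (median -2.33, where all loci had -0.01), beside 2.14% of all loci that fell. One of the calls, that of Ccl2, was lost with the paired numbers as a block, fitted without the wild type libraries (adjusted p = 0.0526). It was also lost with no block when only recombined and unrecombined libraries were fitted. Ccl8 was too low to test, with 7, 3, 7 and 0 counts in wild type, 11, 3, 5 and 2 in unrecombined and 0, 0, 1 and 0 in recombined libraries. Its recombined libraries lay below all unrecombined ones. Ccl12 had 0 or 1 counts in a library.

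Ccl11, or eotaxin, attracts eosinophils, which are needed for normal branching of the mammary ducts, and starts at position 81871333. Wild type libraries had 9.30, 10.95, 22.5 and 18.85 CPM. Unrecombined libraries had 56.5, 74.3, 23.04 and 30.1 CPM, and recombined libraries 7.71, 6.05, 7.16 and 2.56 CPM. The 3 groups did not overlap at all, with recombined libraries lowest and unrecombined libraries highest, although wild type 3 lay close to unrecombined 3. In recombined cells Ccl11 fell by 2.97 ± 0.453 on the log2 scale against unrecombined cells (adjusted p = 0.00129), which is 7.83-fold. Against wild type cells the difference of -1.39 ± 0.431 did not pass (adjusted p = 0.0727), and neither did that of unrecombined against wild type cells, 1.58 ± 0.429 (adjusted p = 0.537). With DESeq2 all 3 passed, the latter 2 with adjusted p values of 0.0143 and 0.0393. The call against unrecombined cells was kept in 25 of 27 settings and lost in the 24 series (-2.47, adjusted p = 0.186, with -3.24 and 0.0169 in the 23 series) and among the 7 libraries with low salivary sums (-2.43, adjusted p = 0.0660).

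Ccl2, the main attractant of monocytes, acts through Ccr2 and starts at position 81849078. Unrecombined libraries had 17.9, 36.8, 22.1 and 4.62 CPM, recombined libraries 6.63, 3.78, 1.99 and 3.71 CPM, and wild type libraries 5.21, 5.77, 13.75 and 4.19 CPM. Unrecombined 1 to 3 lay above all other libraries, while unrecombined 4 lay among the recombined and wild type values. Ccl2 fell by 2.33 ± 0.576 on the log2 scale against unrecombined cells (adjusted p = 0.0297). It did not pass with the paired numbers as a block, fitted without the wild type libraries (-2.13, adjusted p = 0.0526). Nor did it pass with no block in a fit of only recombined and unrecombined libraries, or with voom, with or without library weights. Of 27 settings 13 kept the call, which was lost without recombined 2, 3 or 4 (adjusted p 0.0710, 0.0848 and 0.0827) or unrecombined 1, 2 or 3 (0.0611, 0.0998 and 0.0657), and without recombined 3 and 4 together (0.323). In the 23 series Ccl2 differed by -2.38 and in the 24 series by -2.22.

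Ccl7, a neighbour between Ccl2 and Ccl11 that binds several CC receptors, was followed after its values were seen. Its values were 1.499, 2.01, 5.11 and 2.26 CPM in wild type, 4.64, 10.8, 2.77 and 1.80 in unrecombined and 3.52, 0.733, 1.83 and 0.989 in recombined libraries. Unrecombined 2 held the most Ccl7, as it did Ccl2 and Ccl11, and the groups overlapped. The difference from unrecombined cells was -1.49 ± 0.665 (adjusted p = 0.252).

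**Figure D4:**
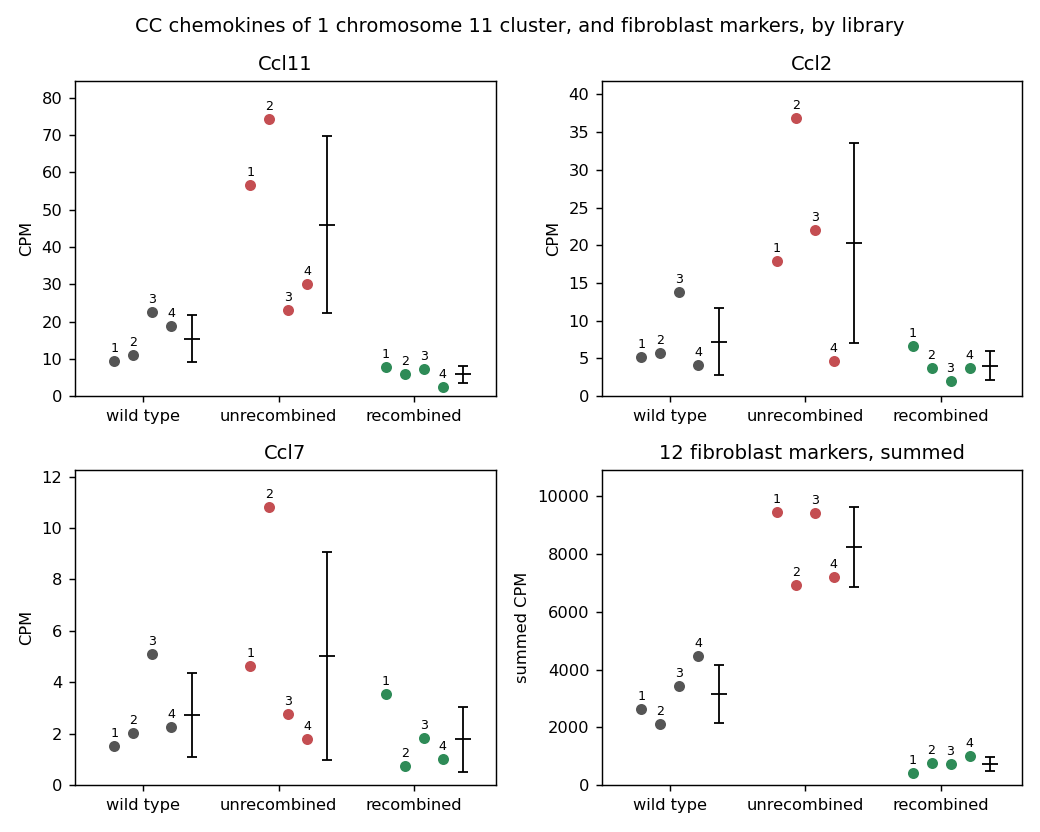
CPM (vertical axes, from 0) of Ccl11, Ccl2 and Ccl7 in each library, and the summed CPM of 12 fibroblast markers, with the mean and SD of each group. Unrecombined libraries hold the highest values in each panel and recombined libraries the lowest sums of fibroblast markers.

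The 12 fibroblast markers had the same order of groups as Ccl11. All 12 fell in recombined against unrecombined cells (median -4.77) and 11 of 12 against wild type (median -3.53), and 0 passed between unrecombined and wild type cells (10 of 12 with an unadjusted p under 0.05, median 1.41). Pdgfra, which marks fibroblasts, had 246.6 to 528 CPM in unrecombined, 66.6 to 147 in wild type and 6.30 to 15.5 in recombined libraries. Their part in the levels of Ccl11 and Ccl2 was not tested. General leukocyte markers summed to 29.5 to 103 CPM in recombined, 70.3 to 129.5 in unrecombined and 104.9 to 158 in wild type libraries. Among the tested markers of this list Lcp1 had the highest means, 52.66, 89.76 and 112.9 CPM in recombined, unrecombined and wild type libraries. Arhgdib went the other way, with 22.89, 11.66 and 8.36 CPM. The part of leukocytes in the levels of Ccl11 and Ccl2 was not tested.

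Among lymphoid, skin and mucosal CC chemokines, 3 of 9 entries were tested and 0 passed in any comparison with edgeR, and 0 had an unadjusted p under 0.05. Ccl25, a thymic and gut chemokine counted with the symbol TECK, lay between 0.969 and 4.09 CPM, with differences from wild type and unrecombined cells of 0.02 ± 0.486 and -0.003 ± 0.488. Ccl28, a mucosal chemokine that brings antibody-secreting cells to the lactating gland and to salivary glands, had 0.375, 4.18, 1.09 and 0.287 CPM in wild type libraries. Unrecombined libraries had 1.20, 25.1, 0.0719 and 1.43 CPM of it and recombined libraries 3.08, 5.06, 0.108 and 8.20. Its highest value by far lay in unrecombined 2, the library with the most salivary marker RNA. The next highest lay in recombined 4, the library with the least (a sum of 42.05 CPM). The part of the salivary markers in the level of Ccl28 was not tested. Ccl17 had at most 1.10 CPM in a library. Among further ligands, Ccl9 was tested, with 0 to 2.46 CPM and a difference from wild type of 0.57 ± 1.19, and Ccl3 (counted with AK137525), Ccl4 (with ScyA4), Ccl5 and Ccl6 were too low.

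Cx3cl1, or fractalkine, is a chemokine on a mucin stalk in the membrane that binds Cx3cr1 on macrophages. It starts on chromosome 8 at position 97296079 and was followed after its values were seen. Recombined libraries had 50.8, 44.97, 75.05 and 26.4 CPM, unrecombined libraries 27.2, 20.6, 32.4 and 20.8 CPM, and wild type libraries 31.7, 24.9, 28.4 and 26.95 CPM. Recombined 1 to 3 lay above all 8 other libraries, while recombined 4 lay among them. The difference from unrecombined cells was 0.97 ± 0.272 (adjusted p = 0.0571), and it passed with the paired numbers as a block (0.90, adjusted p = 0.0337) and without recombined 4 (1.17, adjusted p = 0.0113). Against wild type Cx3cl1 differed by 0.82 ± 0.271 (adjusted p = 0.0945), and by 1.02 without recombined 4 (adjusted p = 0.0240). Its receptor Cx3cr1 had between 0 and 30 counts in a library and was too low to test.

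Of the 19 receptor entries, 6 were tested. Besides Cxcr7, Cxcr4 and Cxcr6 they include the locus of Ccr9 and Xcr1. Ccr9, the receptor of Ccl25, is counted with Slc6a20a, AK038272 and Fyco1 on chromosome 9 from position 123546024, so its own level is not known. That entry had 57.8, 63.9, 62.3 and 80.5 CPM in wild type, 66.75, 44.05, 52.4 and 71.2 in unrecombined and 78.5, 45.7, 43.7 and 47.9 in recombined libraries. The groups overlapped, and the difference from wild type was -0.29 ± 0.219 (adjusted p = 0.498). Xcr1, the receptor of cross-presenting dendritic cells, lay between 0 and 1.57 CPM and had an adjusted p of 0.319 against wild type.

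The 13 receptor entries too low to test were Ccr1, Ccr2, Ccr3, Ccr4, Ccr6, Ccr7, Ccr8, Ccr10, Cx3cr1, Cxcr1, Cxcr2, Cxcr3 and Cxcr5. Their counts together were 81, 115, 49 and 63 in wild type, 16, 48, 39 and 10 in unrecombined and 12, 27, 13 and 2 in recombined libraries. Every wild type library lay above every other library, by a margin of 1 count between wild type 3 and unrecombined 2, and this sum was not tested. How often other low entries show this order was not counted, so it is not shown to be particular to receptors. Recombined 3 and 4 had counts in the fewest loci of all libraries (14256 and 14601). In wild type 2, Ccr7 and Cxcr2 gave 49 and 47 of the 115 counts. Ccr2, the receptor of Ccl2 on monocytes, had 11, 0, 9 and 8 counts in wild type, 0, 5, 4 and 1 in unrecombined and 0, 2, 0 and 0 in recombined libraries. Ccr1, found on monocytes and neutrophils, had 8, 2, 5 and 19 counts in wild type, 0, 0, 2 and 0 in unrecombined and 0 in all recombined libraries. The recombined level was at least 11.1-fold lower than that of wild type with a floor of 3 counts over the group, which covers counting error only. Ccr6 also had 0 counts in recombined libraries, and the same floor gave only 1.3-fold against wild type. Ccr3, the eotaxin receptor, had 1 count in unrecombined 3, 3 in recombined 2 and 0 in every other library. Ccr7, the receptor that takes dendritic cells to lymph nodes, had 15, 49, 20 and 0 counts in wild type libraries, 11 in unrecombined 2 alone and 2 in recombined 2 alone. Cxcr2, the receptor of Cxcl1 and Cxcl2, had 47 counts in wild type 2 and 6 or fewer in every other library. Cxcr1 had 0 counts in all 12. The leukocyte antigen Ptprc also had its 3 highest values in wild type libraries, and its part in these counts was not tested.

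The 15 ligand entries too low to test were Ccl1, Ccl3, Ccl4, Ccl5, Ccl6, Ccl8, Ccl12, 3 entries of Ccl19, Ccl20, Ccl22, Cxcl3, Cxcl11 and Xcl1. Together they had 67, 36, 64 and 27 counts in wild type, 51, 60, 29 and 13 in unrecombined and 30, 22, 4 and 23 in recombined libraries, and the groups overlapped. Ccl22, a chemokine of dendritic cells, had 9, 14, 22 and 0 counts in wild type, 10 in unrecombined 2 alone and 0 in recombined libraries, which is at least 14.7-fold lower than wild type with the same floor. Against unrecombined cells the floor gave 3.1-fold for Ccl22 and 2.48-fold for Xcl1, whose recombined counts were also 0. These entries were not tested, and a low count here does not show that a gene is absent.

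**Figure D5:**
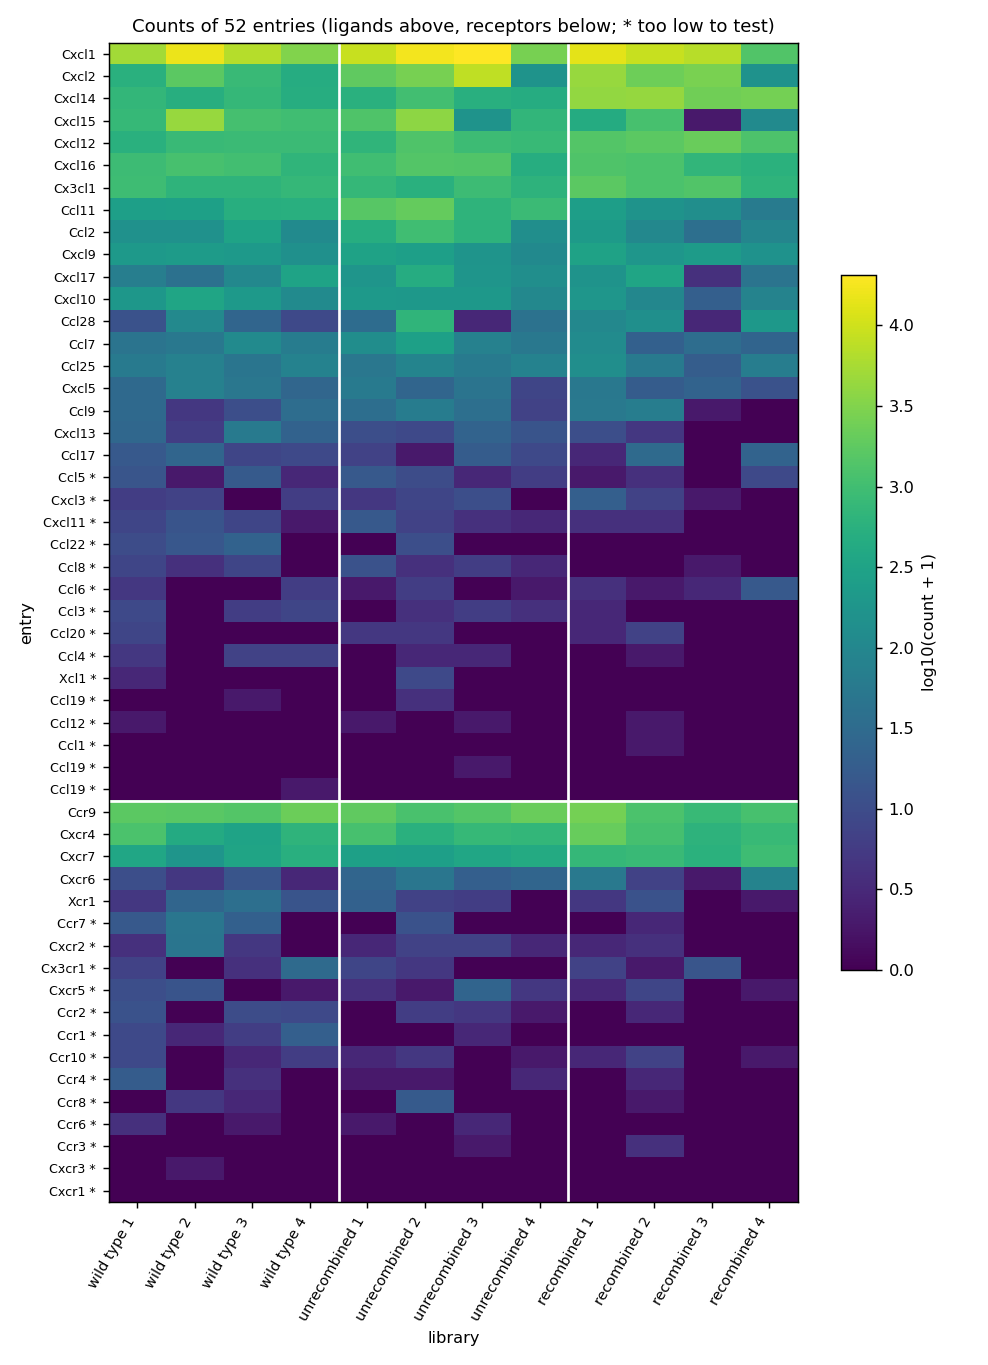
Counts of 52 entries (rows, ligands above the white line and receptors below, each ordered by mean CPM) in the 12 libraries (columns), coloured by log10(count + 1). An asterisk marks the 28 entries too low to test. The upper rows of each block hold counts in all libraries, and most receptor rows are dark throughout.

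Other genes of the chemokine system that do not carry these names were taken from a list. Of 14 tested, 1 rose and 1 fell against wild type (median -0.20) and 1 rose and 1 fell against unrecombined cells (median -0.33). Of all loci 6.55% and 5.22% were called in these comparisons, and the counts of this list rest on few genes. Against wild type Cd74, the invariant chain of MHC class II and a receptor of the cytokine Mif, fell by 2.44 ± 0.536 on the log2 scale (adjusted p = 0.0147). The class II genes H2-Aa and H2-Ab1 had -3.19 and -2.29 (adjusted p 0.0108 and 0.0427), the only 2 called of 10 tested macrophage and dendritic markers. Ptprc had -2.54 (adjusted p = 0.00897), the only 1 called of 6 general leukocyte markers. The part of such cells in the level of Cd74 was not tested. Ccbp2, an atypical receptor that clears inflammatory CC chemokines, Ccl2 and Ccl11 among them, had 0 counts in all recombined libraries and 84 in the unrecombined ones. With a floor of 3 counts over the group, its recombined level was at least 26-fold lower than the unrecombined one (adjusted p = 0.0481). Against wild type, with 39 counts, it was at least 12.7-fold lower, which did not pass (adjusted p = 0.0690).

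Of 28 tested genes of signalling downstream of chemokine receptors, 2 rose and 0 fell in each comparison of recombined cells (medians -0.08 and -0.07). Of all loci 6.55% and 5.22% were called in either direction, close to the share of this list. Gnai1, which encodes an inhibitory G protein subunit, rose by 2.15 ± 0.329 against wild type (adjusted p = 0.00160) and by 1.26 ± 0.319 against unrecombined cells (adjusted p = 0.0335). The locus of Tiam1, an activator of Rac counted with Gm10789, rose by 1.20 ± 0.312 (adjusted p = 0.0339) and 1.29 ± 0.313 (adjusted p = 0.0269). Of 22 tested cytokines and factors known to induce chemokines, 0 passed against wild type with edgeR (4 with an unadjusted p under 0.05, median -0.32). Against unrecombined cells the interleukin 1 receptor Il1r1 alone fell by 1.06 ± 0.247 on the log2 scale (adjusted p = 0.0212, list median -0.23). That is 1 of 22, beside 5.22% of all loci called in either direction and 2.14% lower. None of these 3 lists had a gene past the threshold between unrecombined and wild type cells with edgeR, where 1 gene of each had an unadjusted p under 0.05.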

How the data were processed

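The authors deposited 1 table of unnormalized counts for each entry, whole numbers with a different total in each library, per the file headers. Per the submitters' processing notes STAR, HTSeq 0.3.1 and build mm9 were used. The options, strand setting and annotation are not given in the sources used here. Each entry has symbols, a chromosome and a start. Entries that name several loci (0.0617% to 0.101% of counts) were left out. Entries that join symbols keep all of them, and without strand overlapping genes cannot be told apart.

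With R 4.3.3 and edgeR 4.0.16, TMM scaling, the default filter and a robust quasi-likelihood fit of all 12 libraries (a mean per group, two-sided F tests) were used. Benjamini-Hochberg adjustment ran over 14039 loci, with a threshold of 0.05. Where no tool is named, an adjusted p is from this fit. The fit was tested on simulated data. Alternatives used DESeq2 1.42.0, limma 3.58.1 (voom), other scalings and filters, only the compared groups, the replicate number as a block, covariates, the library number series and libraries left out. Against unrecombined cells the block was fitted to recombined and unrecombined libraries only. The 7 libraries with low salivary sums were chosen after seeing the data. A setting kept a call where it passed in the same direction.

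The members and all gene lists were chosen with earlier results of these data known. Values in every library are given for members that passed, tested members whose groups did not overlap, the 6 ligand and 4 receptor entries with most counts and main receptors of called ligands. Some others, such as Cx3cl1, Ccl7 and Cxcl10, were chosen after their values were seen. A few results are not reported here. Same-numbered recombined and unrecombined libraries deviated together from their group means (r of 0.239, 0.399, 0.244 and 0.298 across loci), which was taken as pairing. Wild type numbers were not taken as paired. Promoter sequences are from RefSeq, build GRCm38.p6. Floors and counts at 0 cover counting error only.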

Additional observations from a re-analysis of the deposited data

Results flagged for a closer look

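In 4 of 48 groups checked, 1 library stood far from the other 3 of its group by Dixon's criterion, which chance alone flags in about 1 of 20 groups. Wild type 3 had 13.75 CPM of Ccl2, where the other wild type libraries had 4.19 to 5.77. Wild type 2 had 173.8 CPM of Cxcl15, where the others had 26.3 to 48.7. Recombined 1 had 78.51 CPM of the Ccr9 entry, where the others had 43.7 to 47.9. Unrecombined 2 had 38.85 CPM of Cxcl14, where the others had 16.1 to 19.95. Entries that name several loci were not used in the comparisons, and 47 of them name a chemokine or receptor. Their summed counts were 19 in unrecombined 2 and 29 in unrecombined 3, above the 7 to 15 counts of the wild type libraries.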

How the results depend on the processing

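The number of members called in recombined against wild type cells (3) was 7 with DESeq2, 5 with the salivary sum as a covariate, 1 with only the 2 groups compared, 1 in the 23 series, 0 in the 24 series and 1 without recombined 3 and 4, and lay between 2 and 3 with 1 library left out. Against unrecombined cells (4) it was 2 in the 23 series, 1 in the 24 series, 2 without recombined 3 and 4 and 1 among the 7 libraries with low salivary sums, and lay between 2 and 5 with 1 library left out. Between unrecombined and wild type cells (0) it was 1 with DESeq2. Of all loci, 1617 were called against wild type with DESeq2 and 594 with only the 2 groups (920 in the reported test), and 1349 against unrecombined cells with DESeq2 (733). Between unrecombined and wild type cells (0) the count was 78 with DESeq2, 18 with voom, 61 with voom and library weights, 8 with only the 2 groups and 1 with the replicate block. Against unrecombined cells the fit of only the 2 groups, with no block, called 3 of 21 tested members and 532 loci, and Ccl2 was not among them. The block of paired numbers, also fitted without the wild type libraries, called 6 of 21 tested members and 984 loci in recombined against unrecombined cells. It added Cxcl12, Cx3cl1 and Cxcl15, lost Ccl2, and changed no other call of a named member there. Against wild type, where the samples share only a number, it called 4 members, adding Cxcr4 (0.89, adjusted p = 0.0233), and 1194 loci.

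Over the named members, 1157 alternative values kept direction and side of the threshold, 46 lost a call, 18 gained one and 64 changed sign. Subsets hold fewer libraries, and other causes of these shifts were not tested. In a library 1 count was worth 0.0299 to 0.0538 CPM, which limits what the low entries can show. No call of a named member changed its direction. Differences near 0 or with a wide spread, none of them past the threshold, changed sign as follows, with the reported log2 value in the first brackets. In unrecombined against wild type cells Ccl7 (0.88) became -0.36 (the 7 libraries). Cxcl10 (-0.35) became 0.39 (24 series). Cxcl12 (0.17) became -0.023 (weights), -0.032 (24 series), and -0.087 to 0.31 with 1 library left out. Cxcl14 (0.005) became -0.037 (upper quartile), -0.040 (voom), -0.19 (weights), -0.009 (no filter), -0.012 (stricter filter), -0.009 (2 groups), -0.049 (block), -0.15 (salivary covariate), -0.009 (without recombined 3 and 4), -0.48 (the 7 libraries), and -0.34 to 0.20 with 1 library left out. Cxcl15 (-0.35) became 0.20 (23 series), and -1.46 to 0.60 with 1 library left out. Cxcl16 (0.14) became -0.036 (weights), and -0.058 to 0.40 with 1 library left out. Cxcr7 (-0.11) became 0.029 (salivary covariate), and -0.32 to 0.11 with 1 library left out. In recombined against unrecombined cells Ccr9 (-0.12) became 0.17 (23 series), 0.080 (without recombined 3 and 4). Cxcl1 (-0.60) became 0.025 (weights). Cxcl16 (-0.12) became 0.008 (voom), 0.29 (weights), 0.11 (without recombined 3 and 4), and -0.38 to 0.086 with 1 library left out. Cxcl2 (-0.31) became 0.029 (voom), 0.79 (weights), 0.40 (23 series), and -0.71 to 0.69 with 1 library left out. Cxcr6 (0.33) became -0.64 (voom), -0.73 (weights), -0.68 (block), -0.53 (23 series), -0.19 (without recombined 3 and 4), and -0.70 to 0.75 with 1 library left out. In recombined against wild type cells Ccr9 (-0.29) became 0.017 (23 series). Cxcl1 (-0.007) became 0.48 (weights), 0.23 (series covariate), 0.054 (23 series), 0.95 (24 series), 0.046 (salivary covariate), 0.32 (without recombined 3 and 4), 0.20 (the 7 libraries), and -0.28 to 0.60 with 1 library left out. Cxcl16 (0.025) became -0.036 (upper quartile), -0.035 (salivary covariate), -0.079 (the 7 libraries), and -0.13 to 0.18 with 1 library left out.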
